A study of Mus musculus with 11 samples.

Results

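Condensin and cohesin are the ring-shaped complexes that shape chromosomes, and 10 genes that encode their subunits were followed here in sorted mouse haematopoietic stem cells. They were the rows of the count table whose Ensembl identifiers carry the symbols Smc2, Smc4, Ncaph, Ncapg, Ncapd2, Ncaph2, Ncapg2, Ncapd3, Smc1a and Smc3. All 10 were found among 49585 entries, and all 10 were among the 13448 genes with enough counts to be tested. The cells were lineage-negative, c-Kit+ and Sca-1+, lacked CD48 and carried CD150, and came from bone marrow of C57BL/6 mice. They were split by surface CD41, an integrin alpha chain of megakaryocytes and platelets. Control mice had received rabbit serum, and the other mice were taken 24 h after depletion of their platelets, with an agent, age and sex that the sources used here do not give. Control mice gave 3 CD41- and 2 CD41+ libraries, and depleted mice gave 3 of each. Each library came from 1000 cells pooled from 3 mice and was described as a biological replicate, so its value is an average over mice and over cells.

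Condensin extrudes loops of DNA and compacts chromosomes for mitosis. Its SMC2 and SMC4 ATPase arms are shared by condensin I and condensin II, and each complex adds its own kleisin, the protein that closes the ring (NCAPH or NCAPH2), and its own HEAT-repeat subunits (NCAPG and NCAPD2, or NCAPG2 and NCAPD3). Condensin II is present in the nucleus through interphase, whereas condensin I reaches the chromosomes after the nuclear envelope breaks down. Cohesin is built on SMC1A and SMC3, holds sister chromatids together from S phase to anaphase, and forms chromatin loops in cells that do not divide. Most haematopoietic stem cells rest outside the cell cycle, and several condensin genes are known to be transcribed mainly in cycling cells.

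Deposited counts summed to 0.974 M to 9.95 M per library, with a median of 3.88 M, so that 3 counts correspond to 0.301 to 3.08 CPM (counts scaled to the size of the library). The shallowest library was depleted CD41+ replicate 1 and the deepest was depleted CD41- replicate 1. Reads amplified without molecular identifiers are not independent molecules, so such floors cover counting error only. Stem cell markers were detected in every group (13 of 13). Together they made up 0.295 to 0.404% of counts in control CD41-, 0.206 to 0.293% in control CD41+, 0.185 to 0.262% in depleted CD41- and 0.114 to 0.219% in depleted CD41+ libraries. Averaged over the fractions, 5 of 13 were called lower after depletion, against 367 of all 13448 genes. Itga2b, the CD41 gene, was higher in CD41+ cells by 2.50 ± 0.26 on the log2 scale in control mice and by 2.32 ± 0.25 in depleted mice (edgeR adjusted p = 0.00198 and 0.00134). Transcripts of 12 neutrophil genes made up 0.914 to 1.59% of counts in control CD41- libraries, 2.4 to 7.66% in control CD41+, 0.465 to 3.65% in depleted CD41- and 1.54 to 5.16% in depleted CD41+ libraries. No defining neutrophil gene was at 0 in any group, and the part of these transcripts in the results that follow was not tested. Megakaryocyte markers made up 0.0948 to 0.158%, 0.121 to 0.192%, 0.0558 to 0.0908% and 0.0656 to 0.109% of counts in the same order. Of these 12 markers, 5 were called higher in CD41+ cells of control mice and 3 in those of depleted mice, against 212 and 9 of all 13448 genes. After depletion 2 were called lower in CD41- cells and 6 averaged over the fractions, against 120 and 367 of all genes. Endothelial and stromal markers made up 0.00878 to 0.0117% (Kitl and Ibsp at 0), 0.0198 to 0.0375%, 0.00803 to 0.0401% and 0.0372 to 0.0657%, with 3 of 9 called higher in control CD41+ cells. Erythroid markers made up 0.313 to 0.508%, 0.476 to 0.642%, 0.311 to 0.451% and 0.415 to 0.516%, with 1 of 12 called higher in control CD41+ cells, and lymphoid markers at most 0.0358%, with 0 of 8 called in any comparison by edgeR and at most 2 at an unadjusted p under 0.05. Over all genes, 6.13 to 23.1% had an unadjusted p under 0.05, depending on the comparison. The part of these markers in the results was not tested either. In bulk libraries, fewer cells of a type and less RNA per cell cannot be told apart.

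Promoters are shown for the members that edgeR called higher after depletion in CD41- cells and that had an entry, because these genes moved together there and because the sequence words known from cell-cycle promoters could be read in them. They were taken from RefSeq (GRCm38.p6), 250 bases before to 50 bases after a gene's start, 5′ to 3′ on the gene's own strand. Capitals mark the words searched on both strands: TTTGAA or TTTAAA (the core of the cell cycle homology region, bound by the MuvB core of the DREAM and B-Myb complexes), CCAAT (bound by NF-Y), and the E2F words TTTGGCGC and TTTCCCGC and TTTGGCGG and TTTCCCGG. A word that lies on the opposite strand appears as its reverse complement, so that TTCAAA stands for TTTGAA and ATTGG for CCAAT. The windows are chr4:52438971-52439270 (plus strand) for Smc2, chr2:127133905-127134204 (minus) for Ncaph, chr5:45669675-45669974 (plus) for Ncapg and chr6:125191537-125191836 (minus) for Ncapd2.
Smc2: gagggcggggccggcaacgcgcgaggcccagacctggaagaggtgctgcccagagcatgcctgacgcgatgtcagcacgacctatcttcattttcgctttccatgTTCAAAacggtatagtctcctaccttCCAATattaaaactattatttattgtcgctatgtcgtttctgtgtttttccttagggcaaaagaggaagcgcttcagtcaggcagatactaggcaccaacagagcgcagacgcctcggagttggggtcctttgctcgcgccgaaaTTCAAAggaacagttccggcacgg
Ncaph: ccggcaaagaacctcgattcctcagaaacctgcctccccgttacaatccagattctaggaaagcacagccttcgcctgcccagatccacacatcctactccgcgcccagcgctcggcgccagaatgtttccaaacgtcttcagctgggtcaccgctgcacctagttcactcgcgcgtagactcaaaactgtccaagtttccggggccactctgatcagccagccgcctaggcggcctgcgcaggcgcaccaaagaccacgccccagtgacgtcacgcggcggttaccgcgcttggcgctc
Ncapg: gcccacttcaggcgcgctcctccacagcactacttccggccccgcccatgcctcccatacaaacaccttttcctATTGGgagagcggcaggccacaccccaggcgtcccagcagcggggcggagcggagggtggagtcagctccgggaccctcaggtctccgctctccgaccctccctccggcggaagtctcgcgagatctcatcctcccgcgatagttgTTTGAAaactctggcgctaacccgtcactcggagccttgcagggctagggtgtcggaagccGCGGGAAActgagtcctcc
Ncapd2: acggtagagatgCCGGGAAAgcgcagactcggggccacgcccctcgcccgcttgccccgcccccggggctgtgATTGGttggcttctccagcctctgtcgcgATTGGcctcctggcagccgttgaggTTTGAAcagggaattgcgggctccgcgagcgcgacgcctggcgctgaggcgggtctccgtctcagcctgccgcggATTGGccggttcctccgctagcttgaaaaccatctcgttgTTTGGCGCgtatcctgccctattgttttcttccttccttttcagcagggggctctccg

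Among the windows printed, those of Smc2, Ncapg and Ncapd2 held both a TTTGAA and a CCAAT word, and that of Ncaph held none of the words. Ncapg carried TTTGAA 30 bases before the start (position -30), and Ncapd2 carried it at -123 with CCAAT at -177, -148 and -48. All distances count from the RefSeq start. The Ncapd2 gene as annotated below (minus strand) begins upstream of that start, at 125191701. Smc2 begins downstream of its RefSeq start, at 52439243, and Ncapg a few bases upstream, at 45669919. The distances therefore depend on the annotation. Smc2 had TTTGAA at -145 and at 27 bases after the start, and CCAAT at -119. E2F words stood at 32 after the start in Ncapg and at -238 and -8 in Ncapd2. In all, 9 of the 10 members matched a window, Ncapd3 with a pair of them. Smc4 had no entry. Ncapg2 held TTTGAA at -18 and E2F words at -249 and at the start itself, Smc1a held CCAAT at -19 and an E2F word at 38 after the start, and the second Ncapd3 window held TTTGAA at -249 and TTTAAA at -132. The windows of Ncaph2 and Smc3 and the first of Ncapd3 held none. Of 32851 promoters of the same length, 27.6% held a TTTGAA or TTTAAA word, 37.4% a CCAAT, 10.7% both and 3.32% an E2F word, so the first 2 kinds are common by themselves. A match describes these letters and does not show binding.

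The level of each transcript across the 4 groups is given in TMM-normalised CPM, in the order of replicates. The shared condensin ATPases come first. Smc2 (ENSMUSG00000028312, GRCm38 chromosome 4, 52439243 to 52488260, plus strand) stood at 43.7, 48.4 and 49.6 CPM in control CD41- libraries and at 43.6 and 49.8 CPM in the CD41+ libraries from control mice. After depletion it stood at 86.4, 97.4 and 98.1 CPM in CD41- and at 95.7, 161 and 110 CPM in CD41+ libraries. Every depleted library lay above every control library, and the control fractions overlapped. Smc4 (ENSMUSG00000034349, chromosome 3, 69004738 to 69034623, plus strand), its partner in the dimer, was at 155, 125 and 148 CPM in control CD41-, 114 and 115 CPM in CD41+ controls, 375, 233 and 355 CPM in depleted CD41-, and 210, 290 and 272 CPM in depleted CD41+ libraries. The depleted libraries again lay above all control libraries, and both control CD41+ libraries lay below the control CD41- libraries. Introns of Smc4 host Mir15b and Mir16-2, for which 0 counts were listed in every library.

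The condensin I-specific subunits had another order of groups. Ncaph (ENSMUSG00000034906, chromosome 2, 127103809 to 127133954, minus strand), the kleisin of condensin I, stood at 41.8, 41.4 and 38.7 CPM in control CD41-, 81.2 and 108 CPM in CD41+ controls, 130.5, 111 and 117 CPM in depleted CD41-, and 109, 130 and 109 CPM in depleted CD41+ libraries. The 3 control CD41- libraries were the lowest of all 11, and both control CD41+ libraries lay between them and the depleted libraries. Ncapg (ENSMUSG00000015880, chromosome 5, 45669919 to 45700546, plus strand), a HEAT-repeat subunit, stood at 76.5, 60.2 and 45.7 CPM in control CD41-, 145 and 134 CPM in CD41+ controls, 166, 116 and 143 CPM in depleted CD41-, and 195, 163 and 141 CPM in depleted CD41+ libraries. Again the control CD41- libraries were lowest and the other 3 groups overlapped. Of the exonic bases of Ncapg, 13.4% are shared with Lcorl on the opposite strand (32 to 316 counts per library), and whether reads were assigned by strand is not given in the sources here. Ncapd2 (ENSMUSG00000038252, chromosome 6, 125168007 to 125191701, minus strand), the second HEAT-repeat subunit, stood at 119, 85.6 and 111 CPM in control CD41-, 168 and 180 CPM in CD41+ controls, 256, 321 and 253.5 CPM in depleted CD41-, and 116, 298 and 245 CPM in depleted CD41+ libraries. The low depleted CD41+ value came from replicate 1, the shallowest library, and fell within the range of the control CD41- libraries.

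Among the condensin II-specific subunits, Ncaph2 (ENSMUSG00000008690, chromosome 15, 89355719 to 89372826, plus strand), the kleisin, stood at 245, 256 and 229 CPM in control CD41-, 344 and 354 CPM in CD41+ controls, 305, 353 and 306 CPM in depleted CD41-, and 289, 356 and 289 CPM in depleted CD41+ libraries. The control CD41- libraries were the lowest here too, but by a smaller ratio than for Ncaph. Its exons share 19.7% of their bases with Sco2 and 12.7% with Tymp on the opposite strand (21 to 173 and 4 to 46 counts per library). Ncapg2 (ENSMUSG00000042029, chromosome 12, 116405402 to 116463731, plus strand), a HEAT-repeat subunit, stood at 18.4, 18.1 and 25.3 CPM in control CD41-, 44.6 and 28.6 CPM in CD41+ controls, 47.5, 31.2 and 39.7 CPM in depleted CD41-, and 28.9, 42.9 and 47.5 CPM in depleted CD41+ libraries. The control CD41- libraries were again the lowest. Counts ran from 26 in depleted CD41+ replicate 1 to 466 in depleted CD41- replicate 1. Ncapd3 (ENSMUSG00000035024, chromosome 9, 27030175 to 27095315, plus strand), the other HEAT-repeat subunit, stood at 33.3, 39.3 and 77.8 CPM in control CD41-, 104 and 71.5 CPM in CD41+ controls, 78.8, 113 and 94.8 CPM in depleted CD41-, and 22.2, 149 and 70.2 CPM in depleted CD41+ libraries. The Ncapd3 groups overlapped except the control and depleted CD41- libraries, and the value of 22.2 CPM rested on 20 counts.

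The last members are the cohesin ATPases. Smc1a (ENSMUSG00000041133, chromosome X, 152016428 to 152062694, plus strand) stood at 229, 152 and 306 CPM in control CD41-, 104 and 135.5 CPM in CD41+ controls, 401, 345 and 289 CPM in depleted CD41-, and 115, 311 and 248 CPM in depleted CD41+ libraries. Its 2 control CD41+ libraries lay below the control CD41- libraries, and the control and depleted CD41- libraries overlapped. Smc3 (ENSMUSG00000024974, chromosome 19, 53600398 to 53645833, plus strand) stood at 175, 132 and 153 CPM in control CD41-, 127 and 123 CPM in CD41+ controls, 246, 204 and 221 CPM in depleted CD41-, and 121, 244 and 242 CPM in depleted CD41+ libraries. Depleted CD41+ replicate 1 was again the exception, as low as the control CD41+ libraries, while the other depleted libraries lay above all controls.

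**Figure D1:**
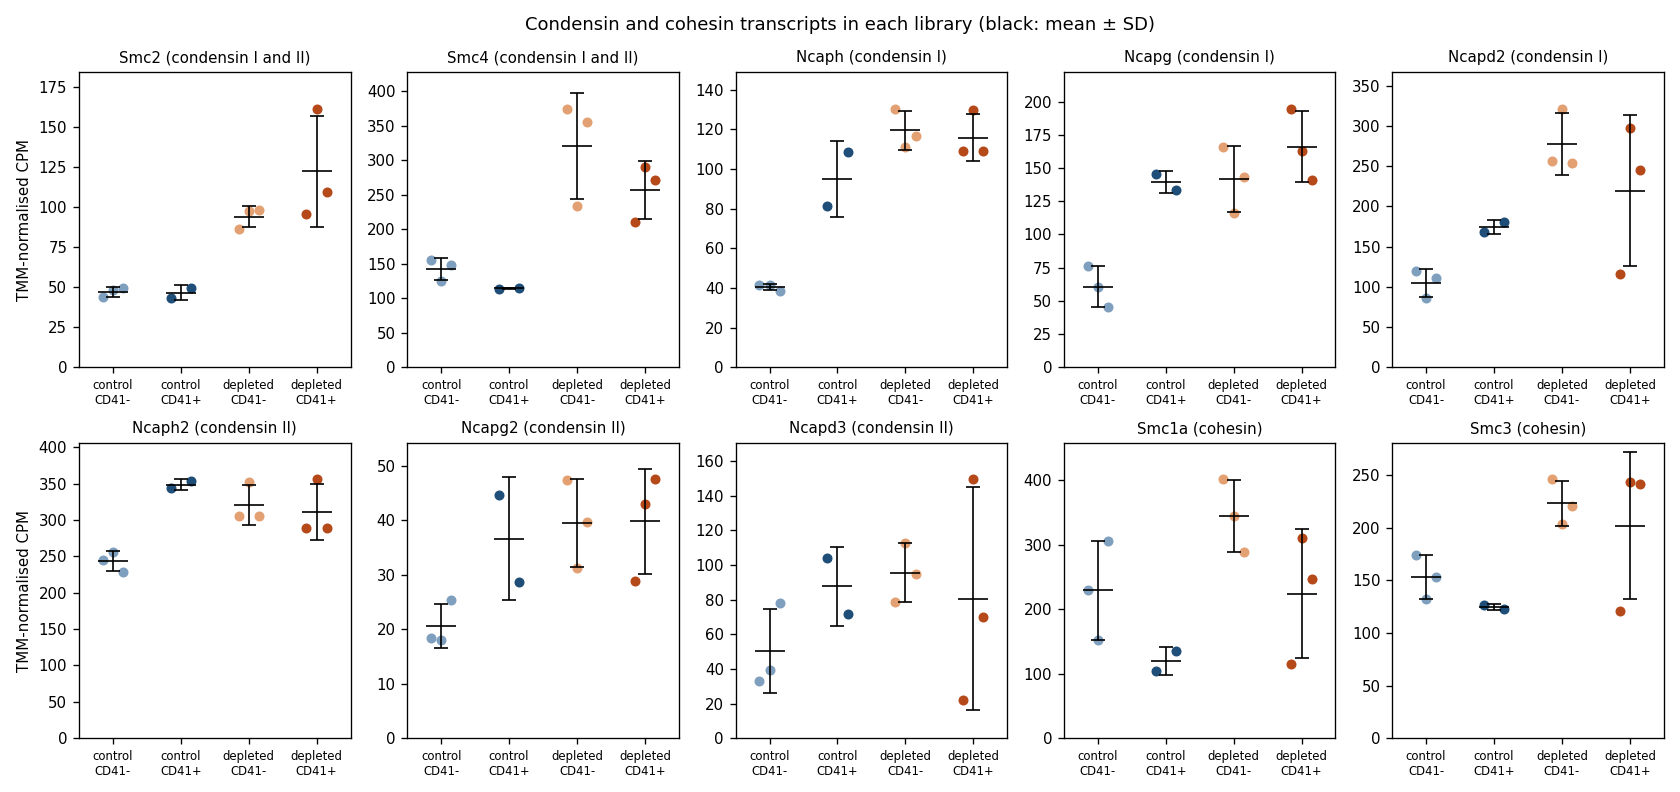
TMM-normalised CPM (y axes, from 0) of the 10 transcripts in each library by group, with the mean ± SD of the group in black (n = 3, 2, 3 and 3 libraries). Smc2 and Smc4 separate depleted from control libraries, while the control CD41- libraries alone are low for Ncaph, at 38.7 to 41.8 CPM.

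Levels can be compared between genes only per length. The length used was that of all annotated exons of a gene together. It can exceed the length of the transcripts present in these cells, so the order of genes depends on it. In control CD41- cells, Ncaph2 was the most abundant per kb of exon, at 58.0 ± 3.28 CPM per kb (SD, n = 3). Smc1a followed at 39.7 ± 13.3, and Smc3 and Smc4, at 27.7 ± 3.83 and 27.4 ± 3.05 CPM per kb, differed by less than their spread. Ncapd2 was next at 16.8 ± 2.78 CPM per kb. Ncaph, Smc2 and Ncapg lay close together at 9.42 ± 0.393, 8.62 ± 0.568 and 8.6 ± 2.17 CPM per kb, and the lowest were Ncapd3 at 6.35 ± 3.06 and Ncapg2 at 2.07 ± 0.41 CPM per kb. In depleted CD41- cells the order at the top was Ncaph2 at 76.5 ± 6.52, Smc4 at 61.6 ± 14.7 and Smc1a at 59.8 ± 9.71 CPM per kb, the latter pair within their spread. The kleisin of condensin II had a higher mean level per kb than that of condensin I in every group, with 74.1 ± 9.13 against 26.9 ± 2.77 CPM per kb in depleted CD41+ cells.

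CD41+ and CD41- stem cells of control mice were compared to see whether the fractions differ before platelets are lost. Transcripts of the condensin I subunits Ncaph and Ncapg were more abundant in CD41+ cells, by 2.33-fold and 2.30-fold, and edgeR called none of the other members. Ncaph was higher by 1.22 ± 0.19 on the log2 scale (edgeR adjusted p = 0.00516) and Ncapg by 1.20 ± 0.23 (adjusted p = 0.0147), and both were higher in 2 of 2 CD41+ libraries than in all CD41- libraries. In all, 2 of 10 members were called higher and 0 lower, against 1.58% of all genes called higher. The members were chosen with earlier results of these data known, so such counts are descriptive, here and in the comparisons that follow. The median log2 fold change of the members was 0.62, against -0.03 over all genes. Ncapd2, the other condensin I-specific subunit, had a log2 fold change of 0.73 ± 0.29 (adjusted p = 0.188). Those of the condensin II subunits were 0.52 ± 0.16 for Ncaph2, 0.83 ± 0.31 for Ncapg2 and 0.80 ± 0.57 for Ncapd3 (adjusted p = 0.0942, 0.166 and 0.48). The ATPases had values at or below 0, namely -0.02 ± 0.23 for Smc2 (95% interval -0.51 to 0.47), -0.32 ± 0.22 for Smc4, -0.94 ± 0.36 for Smc1a and -0.30 ± 0.25 for Smc3 (adjusted p = 0.977, 0.455, 0.186 and 0.554). With only 2 control CD41+ libraries these calls depend on single ones, Ncaph on replicate 2 and Ncapg on each. Without replicate 2 neither Ncaph (edgeR adjusted p = 0.0832) nor Ncapg (0.0805) passed, and without replicate 1 Ncapg did not (0.0703). Replicate 2 had the highest share of neutrophil transcripts of all libraries, 7.66% against 2.4% in replicate 1. The part of these transcripts was not tested. Ncapg also missed the threshold without control CD41- replicate 3 (0.0535) and when only the groups compared were fitted (0.0539). DESeq2 also called Ncaph2 higher (0.0188). Without the filter on low counts edgeR also called Ncapd2 (0.0301) and Ncapd3 (0.0453) higher and Smc1a lower (0.00393), and Ncapd2 was called without depleted CD41+ replicate 1 (0.0365).

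After platelet depletion the same comparison called no member and few genes in all. Called were 0 of 10 members by edgeR, against 0.193% of all genes called in either direction. At an unadjusted p under 0.05 stood 0 members, against 9.18% of all genes. DESeq2 and limma voom also called 0 members, against 1.42% (set against 13448) and 0.773% of all genes. At such shares 0 of 10 does not set the members apart from other genes. Ncaph had a log2 fold change of -0.04 ± 0.17 with a 95% interval of -0.40 to 0.32. Ncapg had 0.22 ± 0.21, Ncapd2 -0.32 ± 0.26 and Smc2 0.39 ± 0.20 (adjusted p = 0.826, 0.786 and 0.583). The remaining values ran from -0.60 (Smc1a, adjusted p = 0.608) to 0.04 (Ncapg2). Averaged over control and depleted mice, 2 of 10 members were higher in CD41+ cells, against 2.73% of all genes. These were Ncaph by 0.59 ± 0.13 (edgeR adjusted p = 0.0171) and Ncapg by 0.71 ± 0.15 (adjusted p = 0.0178). Smc1a had the value furthest from 0, in the other direction, at -0.77 ± 0.24 (adjusted p = 0.0813). It was called lower by DESeq2 (0.0194), without the filter on low counts (4.26e-05), and when replicate 2 of control CD41- (0.0441) or of depleted CD41+ cells (0.0418) was left out. The averages for Ncaph and Ncapg hold the control difference, and without control CD41+ replicate 2 neither passed (adjusted p = 0.102 and 0.0519), nor did Ncapg without replicate 1 (0.0582). Scaling by library size alone moved the median of all genes to -0.15 in control mice and -0.12 in the average, and turned the split of higher and lower calls from 212 and 140 to 129 and 157, and from 367 and 357 to 250 and 445. Ncaph and Ncapg were called higher under that scaling too.

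The response to platelet loss was read in each fraction. In CD41- cells all 5 condensin I subunits rose, by 1.99-fold to 2.94-fold, and edgeR called none of the condensin II-specific and cohesin genes. Ncaph rose by 1.56 ± 0.17 on the log2 scale (edgeR adjusted p = 0.000424), Ncapd2 by 1.40 ± 0.26 (adjusted p = 0.00988), Ncapg by 1.23 ± 0.21 (0.00537), Smc4 by 1.17 ± 0.19 (0.00442) and Smc2 by 0.99 ± 0.20 (0.0155). For each of these genes 3 of 3 depleted libraries lay above 3 of 3 control libraries. The 5 of 10 members called stood against 2.3% of all genes called higher, 0 members were lower, and the median over members was 0.96 against -0.03 over all genes. Values of the others were positive as well, at 0.94 ± 0.28 for Ncapg2, 0.93 ± 0.52 for Ncapd3, 0.40 ± 0.14 for Ncaph2, 0.59 ± 0.31 for Smc1a and 0.54 ± 0.22 for Smc3 (adjusted p = 0.0959, 0.407, 0.165, 0.371 and 0.224). Smc2 lost its call without control CD41- replicate 1 (0.0571) or without depleted CD41- replicate 2 (0.0526) or 3 (0.0702), while Smc4, Ncaph, Ncapg and Ncapd2 passed in all 18 alternatives. Of the members that edgeR did not call, Ncapg2 passed by DESeq2 (0.0352), Ncapd3 without the filter on low counts (0.00381) and Smc3 without depleted CD41+ replicate 1 (0.0441). The control CD41- libraries serve both in this comparison and in that of the control fractions, so the calls for Ncaph and Ncapg in both are not independent of each other.

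In CD41+ cells Smc2 was the member that passed the test for depletion. It rose 2.64-fold (log2 1.40 ± 0.24, edgeR adjusted p = 0.0349), the 1 member of 10 called, against 0.0372% of all genes called higher (5 genes). Smc4 had a similar log2 value of 1.17 ± 0.22 without passing (adjusted p = 0.078), with 3 of 3 depleted libraries above 2 of 2 control libraries. The condensin I-specific subunits had smaller values, 0.29 ± 0.19 for Ncaph, 0.24 ± 0.23 for Ncapg and 0.35 ± 0.29 for Ncapd2 (adjusted p = 0.559, 0.718 and 0.666). Smc1a and Smc3 had 0.93 ± 0.36 and 0.71 ± 0.25 (adjusted p = 0.336 and 0.286), and the condensin II genes -0.16 (Ncaph2), 0.15 (Ncapg2) and -0.05 (Ncapd3). The Smc2 call was lost in 13 of 18 alternatives, with an adjusted p of up to 0.268. It was lost without control CD41+ replicate 1 or 2, control CD41- replicate 1 or 2, any depleted CD41- replicate, or depleted CD41+ replicate 2 or 3, and without the shallow depleted CD41+ replicate 1, Smc2, Smc4 and Smc3 were all called among 57 genes. DESeq2 called Smc2 and Smc4 (adjusted p = 1.26e-05 and 0.000244), and limma voom called neither (0.0715 and 0.0959).

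**Figure D2:**
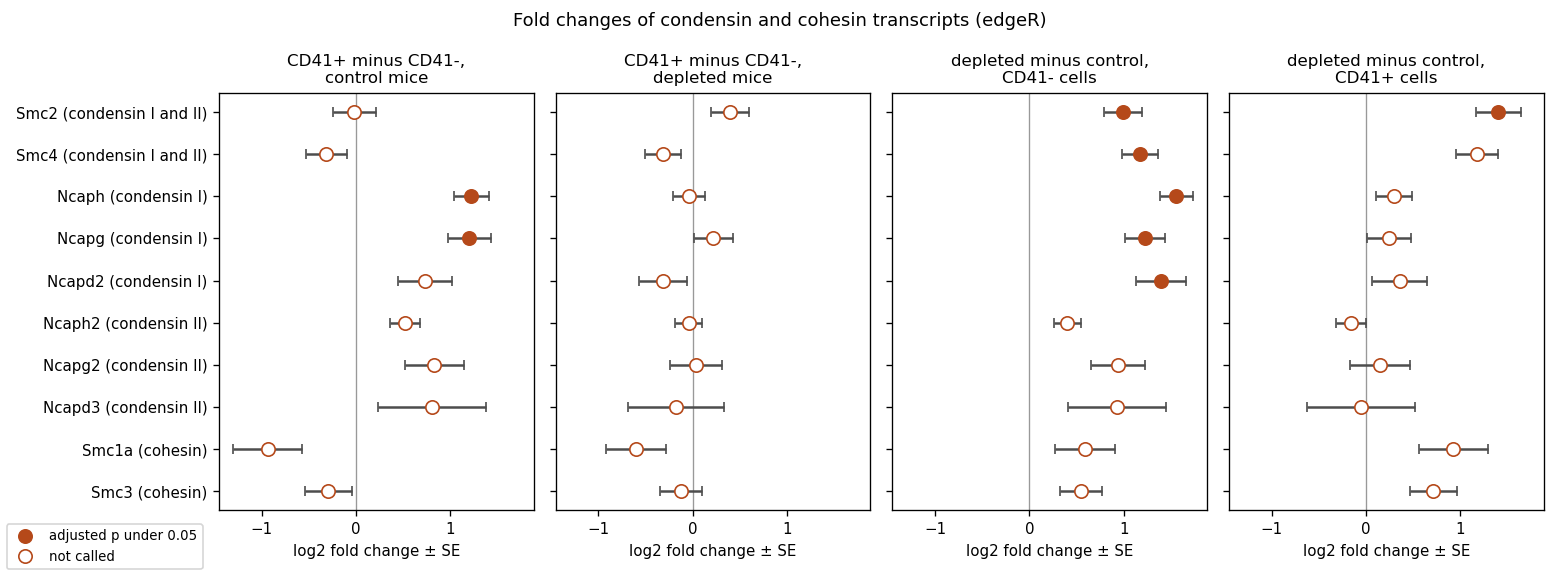
Log2 fold change ± SE of each member (x axes) in the 4 comparisons between groups, from edgeR, with filled points for an adjusted p under 0.05 over 13448 genes. Ncaph and Ncapg are filled for CD41 in control mice, all 5 condensin I subunits for depletion in CD41- cells, Smc2 alone for depletion in CD41+ cells, and none for CD41 in depleted mice.

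Averaged over the fractions, 6 of 10 members rose after depletion, against 3.6% of all genes called higher. These were Smc2 by 1.20 ± 0.15, Smc4 by 1.17 ± 0.15, Ncaph by 0.93 ± 0.13, Ncapd2 by 0.88 ± 0.20, Ncapg by 0.73 ± 0.16 and Smc3 by 0.63 ± 0.17 (edgeR adjusted p = 0.000946, 0.000887, 0.00155, 0.0204, 0.0151 and 0.0405). Smc2, Smc4 and Ncaph passed in all 17 alternatives and Smc3 in 6 of them. Without control CD41+ replicate 1 or replicate 2, only Smc2, Smc4 and Ncaph passed (Ncapg up to 0.0645, Ncapd2 up to 0.0884), and without depleted CD41+ replicate 3 Ncapd2 did not. Smc1a had 0.76 (adjusted p = 0.0831) and was called by DESeq2 (0.0156), by limma voom (0.0359), without the filter on low counts (5.01e-05) and without depleted CD41+ replicate 1 (0.0101). The others had lower values, Ncapg2 0.54 (0.152), Ncapd3 0.44 (0.569) and Ncaph2 0.12 (0.568).

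Whether the depletion response differed between the fractions was tested as the difference of both responses, CD41+ minus CD41-. By edgeR 0 of 13448 genes (0%) and 0 of 10 members were called, with 825 genes and 4 members at an unadjusted p under 0.05. The 4 members were Ncaph at -1.26 ± 0.25 (adjusted p = 0.304), Ncapd2 at -1.04 ± 0.39 (0.66), Ncapg at -0.98 ± 0.31 (0.548) and Ncaph2 at -0.56 ± 0.21 (0.679). DESeq2 called 30 genes, among them Ncaph (adjusted p = 0.0167), an edgeR fit without the filter on low counts called 178, also with Ncaph (0.028), and limma voom called 0. For the ATPases the difference was 0.00 for Smc4 (95% interval -0.61 to 0.61) and 0.41 ± 0.30 for Smc2 (adjusted p = 0.909). The larger value of Ncaph in CD41- than in CD41+ cells is thus not established by the test over all genes.

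The balance within each library shows the same groups in another way. It was taken as the mean log2 CPM of Ncaph, Ncapg and Ncapd2 minus that of Smc2 and Smc4. It stood at -0.18, -0.38 and -0.56 in control CD41-, 0.83 and 0.86 in control CD41+, -0.02, 0.09 and -0.21 in depleted CD41-, and -0.07, -0.23 and -0.15 in depleted CD41+ libraries. The 2 control CD41+ libraries stood above all others, with Ncaph and Ncapg at a higher level there than in control CD41- libraries and Smc2 and Smc4 at or below the control CD41- level. The ratio of Ncaph to Smc4 in CPM was 0.712 and 0.942 in control CD41+ libraries and 0.261 to 0.519 in the others. The balance of the cohesin ATPases over the condensin ATPases, by the same measure, was 1.28, 0.87 and 1.33 in control CD41-, 0.70 and 0.76 in control CD41+, 0.80, 0.81 and 0.44 in depleted CD41-, and -0.27, 0.35 and 0.50 in depleted CD41+ libraries. It was highest in control CD41- cells and lowest in depleted CD41+ replicate 1, the shallowest library. These balances were formed after the fold changes were known and carry no test.

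**Figure D3:**
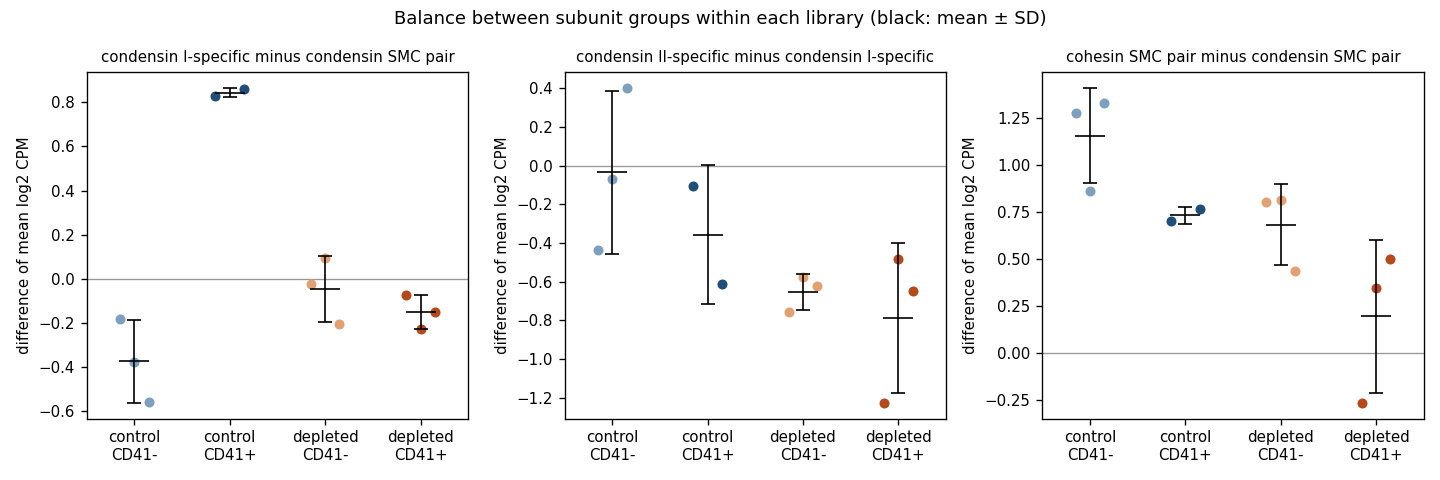
Difference of mean log2 CPM between groups of subunits in each library (y axes), with mean ± SD in black (n = 3, 2, 3 and 3). In the first panel the control CD41+ libraries, at 0.83 and 0.86, stand above the other libraries, which lie between -0.56 and 0.09.

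Members varied together to different degrees. Over the 11 libraries, which share their group structure and scaling, Pearson's r between log2 CPM of the mean of the 5 condensin I subunits and each member was 0.94 for Ncaph, 0.89 for Smc2, 0.88 for Ncapd2, 0.84 for Ncapg and 0.84 for Smc4, each of which is part of that mean. For genes outside it, r was 0.80 for Ncapg2, 0.68 for Smc3, 0.67 for Ncaph2, 0.45 for Ncapd3 and 0.40 for Smc1a. Ncaph and Ncapg had r = 0.92 with each other, Smc1a and Smc3 had 0.86, Smc4 and Smc3 had 0.86, and Ncapg and Smc1a had -0.11. The 5 genes outside the complexes whose levels followed the condensin I mean most closely over the 11 libraries were Anp32e (r = 0.99), Ckap2 (0.99), Rccd1 (0.98), Prc1 (0.98) and Cmc2 (0.98). Ckap2 and Prc1 encode spindle proteins, and Anp32e a chaperone of the histone variant H2A.Z. The mean level of Prc1 was 96.6 CPM in control CD41-, 200 CPM in CD41+ controls, 297 CPM in depleted CD41- and 307 CPM in depleted CD41+ cells.

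Other genes of the pathways were read from lists beside the members, whose counts stand against 1.58% of all genes called higher in control CD41+ cells and 2.3% in depleted CD41- cells. The lists were chosen with earlier results of these data known. Both comparisons use the same control CD41- libraries, so the calls of a gene or list in both are not independent of each other. Among 6 measured cohesin subunits outside the members, 0 were called by edgeR in any of the 4 comparisons between groups. At an unadjusted p under 0.05 stood 3 in control CD41 and 2 in the depletion response of CD41- cells. The shares of all genes at that p were 18.9% and 16.9%. DESeq2 called 2 in control CD41 and 0 in the others, and limma voom 0 in all 4. In control CD41 DESeq2 called 945 genes in all (7.03% when set against 13448). Rad21, the mitotic kleisin of cohesin, had log2 fold changes of -0.58 in control CD41 and 0.40 in depleted CD41- cells (adjusted p = 0.272 and 0.421), and Stag2, the subunit that docks on it, -0.86 and -0.38 (0.122 and 0.482). Over all 13448 genes, 140 were called lower in control CD41+ cells. Among 10 genes of cohesin loading, release and acetylation, 2 were higher and 1 lower there, and 2 were higher in depleted CD41- cells. The medians were -0.41 and 0.15. Cdca5, whose product sororin protects cohesion in S and G2 phase, was higher by 1.74 ± 0.26 in control CD41+ cells and rose by 1.54 ± 0.24 in depleted CD41- cells (adjusted p = 0.00464 and 0.00328). Esco2, which acetylates SMC3 during replication, had 1.56 ± 0.29 and 1.76 ± 0.27 (0.0132 and 0.00258, the first lost without control CD41+ replicate 2, at 0.111). Nipbl, the cohesin loader, was the 1 lower gene, by -1.88 ± 0.38 in control CD41+ cells (mean 14.1 against 51.9 CPM, adjusted p = 0.0204), a call lost without control CD41- replicate 1 (0.0538) or control CD41+ replicate 1 (0.0526) or 2 (0.197).

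Of 8 genes of separase and cohesin protection, 2 were higher in control CD41+ cells and 2 rose in depleted CD41- cells, with medians of 0.29 and 0.62. Sgo1, which shields centromeric cohesin, was higher by 1.95 ± 0.29 and rose by 2.07 ± 0.27 (edgeR adjusted p = 0.00383 and 0.0011), and Plk1, a mitotic kinase that removes cohesin from chromosome arms, by 1.36 ± 0.24 and 1.72 ± 0.22 (0.0101 and 0.00107, the first lost without control CD41+ replicate 2, at 0.0898). Among 15 genes of mitotic chromosome structure and condensin regulation, 6 were higher in control CD41+ cells and 9 rose in depleted CD41- cells. Their medians were 0.60 and 1.51. Cdca8, a subunit of the chromosomal passenger complex, had 1.34 ± 0.17 and 1.79 ± 0.16 (0.0029 and 9.49e-05), and its partner Birc5 1.24 ± 0.27 and 1.79 ± 0.25 (0.0279 and 0.0016, the first lost in 5 of 19 alternatives, among them without either control CD41+ library, at 0.131 and 0.0986). Of 21 DNA replication genes, 11 and 14 were called higher, against 1.58% and 2.3% of all genes, with medians of 0.77 and 0.81. Rrm1, a subunit of ribonucleotide reductase, had 1.34 ± 0.16 and 1.32 ± 0.15 (0.00198 and 0.000424). Without control CD41+ replicate 2 the control counts were 2 of 15 and 1 of 21, and without depleted CD41- replicate 1 the replication count in CD41- cells was 6 of 21. The medians over all genes were -0.03 in both comparisons.

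Of 9 measured genes of the SMC5/6 complex, a relative of condensin and cohesin in DNA repair, edgeR called 0 in control CD41. DESeq2 called 1 and limma voom 0, and 2 stood at an unadjusted p under 0.05, against 18.9% of all genes. In depleted CD41- cells edgeR called 1, DESeq2 3 and limma voom 2. Over all genes limma voom called 4.74% there, and DESeq2 called 818 genes (6.08% when set against 13448). The edgeR call was Nsmce1, a ubiquitin ligase subunit of the complex, at 0.60 ± 0.14 (adjusted p = 0.0369), and it was lost in 9 of 18 alternatives (up to 0.188), among them without any 1 of the control or depleted CD41- libraries or without control CD41+ replicate 2. Of 17 E2F and DREAM factors, which drive or repress cell-cycle promoters, 2 were higher in control CD41+ cells and 2 rose in depleted CD41- cells. The control count ran from 0 (limma voom) to 5 over the alternatives. Tfdp1, a dimer partner of E2F proteins, was higher in control CD41+ cells by 0.95 ± 0.23 (edgeR adjusted p = 0.0436), a call lost in 11 of 19 alternatives (up to 0.249). E2f8, a repressor of E2F targets, had 1.62 ± 0.34 and 1.74 ± 0.31 (edgeR adjusted p = 0.0236 and 0.00699, the first lost in 6 of 19 alternatives, with an adjusted p of up to 0.153), and Foxm1, an activator of G2 and M phase genes, rose by 2.04 ± 0.37 in depleted CD41- cells (0.00712). Of the 86 measured genes of these 7 lists, edgeR called 0 for CD41 in depleted mice, as did DESeq2 and limma voom. Over all genes these tools called 0.193%, 1.42% (set against 13448) and 0.773% there. At an unadjusted p under 0.05 stood 5 of the 86, against 9.18% of all genes. In the depletion response of CD41+ cells edgeR also called 0, while DESeq2 called 7 and limma voom 0. DESeq2 called 248 genes in all there (1.84% when set against 13448). At an unadjusted p under 0.05 stood 24 of the 86, against 12.2% of all genes. Of the 15 mitotic chromosome genes, 10 were among those 24 and DESeq2 called 5.

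**Figure D4:**
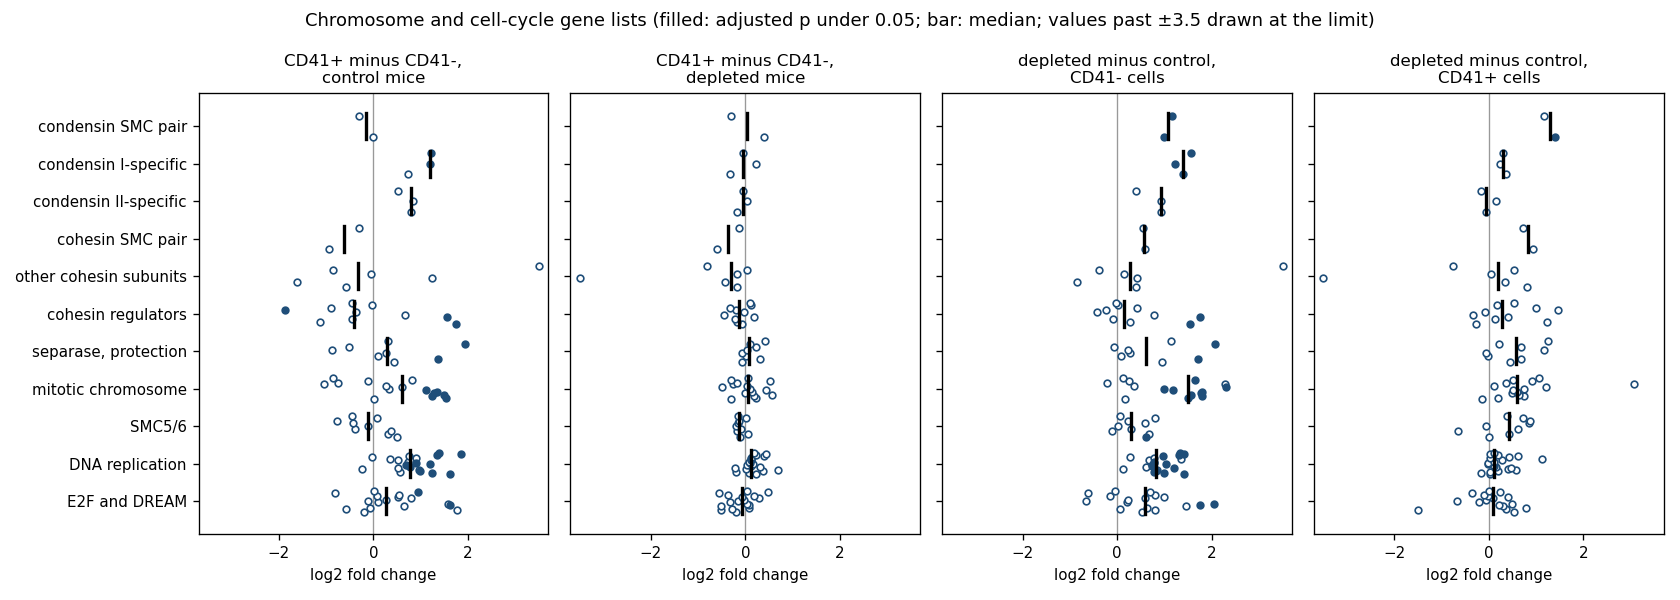
Log2 fold change of every measured gene of the member groups and of the 7 other lists (x axes) in the 4 comparisons, filled where the adjusted p was under 0.05, with the list's median as a bar and values past 3.5 drawn at the limit. Filled points of the mitotic chromosome list number 6 in control CD41 and 9 in depleted CD41- cells, and 0 in the other 2 panels.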

How the data were processed

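RNA of 1000 sorted cells per library was reverse transcribed with an oligo-dT primer and template switching, amplified and tagmented, per the labels' protocols. Per the submitters' processing notes, the tools were cutadapt, STAR and HTSeq 0.6.1p1, and the builds named are GRCm38 and mm10. The deposited values are the authors' raw counts per gene, used unscaled. For the strand setting and the annotation release, the sources used here give nothing.

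All 11 libraries were fitted together, with 1 coefficient per group, by the quasi-likelihood test of edgeR 4.0.16 in R 4.3.3 (filterByExpr with a minimum count of 10 and total of 15, TMM, robust), in 7 comparisons adjusted by Benjamini-Hochberg over 13448 genes at 0.05. Symbols and coordinates came from the GRCm38 annotation, and 259 entries had no symbol. The members and lists were chosen with earlier results of these data known. Named were all members, up to 4 genes of each list with the smallest p in any comparison (of which those that bear on the members are printed), and the 5 genes most like the condensin I mean in log2 CPM (prior count 2). The 7 cell marker lists gave shares of counts. Each result was also computed with DESeq2 1.42.0, with voom of limma 3.58.1 (quality weights), with RLE or library-size scaling, without the filter, without the robust option, on only the groups compared, with consecutive title numbers as a block, and with each library left out in turn. Figures were drawn with matplotlib 3.10.9.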

Additional observations from a re-analysis of the deposited data

How the results depend on the processing

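With 2 or 3 pooled libraries a group, the numbers of members called moved with the processing, and the causes of these moves were not tested. For CD41 in control mice, against 2 members called, there were 5 without the filter on low counts, 3 by DESeq2, 1 when only the groups compared were fitted, and 0 to 3 when 1 library was left out. For depletion in CD41+ cells, against 1, there were 0 with library size alone, 3 without the filter, 0 without the robust fit, 2 by DESeq2, 0 by limma voom, 0 with only the groups compared, and 0 to 3 when 1 library was left out. The left-out ranges were 0 to 3 against 2 for CD41 averaged over treatments, 3 to 7 against 6 for depletion averaged over fractions, and 4 to 6 against 5 for depletion in CD41- cells. The difference of the responses had 1 member without the filter and 1 by DESeq2, against 0. All genes called for CD41 in control mice numbered 352, and 1142 without the filter, 945 by DESeq2, 176 by limma voom and 143 with only the groups compared. For depletion in CD41- cells they numbered 429, and 862 and 818 without the filter and by DESeq2, and for CD41 in depleted mice 26, and 387, 191 and 104 without the filter, by DESeq2 and by limma voom. For depletion in CD41+ cells they numbered 14, and 317 and 248 without the filter and by DESeq2.

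The labels do not state that title numbers pair the samples. Deviations of consecutive numbers correlated at 0.08 and 0.10 in control and at 0.23, 0.34 and 0.21 in depleted pairs. With a replicate block of consecutive numbers, 2, 0, 2 and 0 members were called for CD41 in control mice, in depleted mice, on average and for the difference, as without it, and 394, 158, 1053 and 2 genes in all against 352, 26, 724 and 0. The block could not be fitted for the depletion comparisons.

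Signs turned only for values that were not called, the largest of them 0.34 (Smc1a for the difference) and 0.31 (Ncapd3 for averaged CD41). Ncapg2 for CD41 in depleted mice was -0.01 (-0.008) and Ncapd3 for depletion in CD41+ cells 0.01 (0.007) with library size alone. Smc4 for the difference was -0.039 without the filter, -0.019 by limma voom and -0.012 with the block, under which Smc2 for CD41 in control mice was 0.018 and Smc1a for the difference -0.019. Over left-out libraries, Smc2 for CD41 in control mice ran from -0.117 to 0.103. For CD41 in depleted mice Ncaph ran from -0.132 to 0.029, Ncaph2 from -0.149 to 0.032, Ncapg2 from -0.107 to 0.196, Ncapd3 from -0.945 to 0.208 and Smc3 from -0.275 to 0.122. For depletion in CD41+ cells Ncapg2 ran from -0.138 to 0.507 and Ncapd3 from -0.822 to 0.325. Ncapd3 ran from -0.071 to 0.548 for averaged CD41, and Smc4 from -0.181 to 0.131 for the difference. At 0.974 M counts, the low values of Ncapd3 and Ncapg2 in depleted CD41+ replicate 1 rest on 20 and 26 counts.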

Other observations

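Genes around the complexes gave further values. Ctcf, Ccnb1, Ccnb2 and Smc6 belong to the lists above, so any calls of theirs are already in the counts given there. Ctcf, which marks the ends of cohesin loops, had a mean of 42.7 CPM in control CD41-, 19.4 CPM in control CD41+, 51.6 CPM in depleted CD41- and 44.4 CPM in depleted CD41+ cells, and was not called in control CD41 (log2 -1.14 ± 0.36, edgeR adjusted p = 0.103). Control CD41+ cells had the lowest mean CPM of the 4 groups for Ctcf, for Nipbl and for the members Smc1a, Smc3, Smc4 and Smc2. For Smc2 the mean was close to that of control CD41- cells (46.67 against 47.26 CPM). Ccnb1 and Ccnb2, the cyclins that drive entry into mitosis, were higher in control CD41+ cells by 1.48 ± 0.22 and 1.28 ± 0.18, and rose in depleted CD41- cells by 1.56 ± 0.20 and 1.78 ± 0.17 (adjusted p = 0.00367 for both, then 0.0011 and 0.000165). The control call of Ccnb2 was lost without control CD41+ replicate 2 (0.0563). Smc6, an ATPase of the SMC5/6 complex, had means of 70.3 and 74.0 CPM in control and 122 and 120.5 CPM in depleted CD41- and CD41+ cells.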
